A study of Mus musculus with 29 samples.

Results

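The genes of mitochondrial oxidative phosphorylation (OXPHOS) were described across 29 single mouse retinal ganglion cells (RGCs). A gene was included if its symbol in the probe annotation began with Nduf, Uqcr, Atp5, Cox4, Cox5, Cox6, Cox7 or Cox8, or was *Sdha*, *Sdhb*, *Sdhc*, *Sdhd*, *Cycs* or *Ppargc1a*, and if it had a probe set for that gene alone. This gave 92 of 18194 genes, on 188 probe sets: 36 genes counted as complex I subunits, 8 complex I assembly factors, 4 complex II, 8 complex III, 17 complex IV and 17 ATP synthase genes, with *Cycs* and *Ppargc1a*. Complexes were assigned by gene symbol alone. All Nduf genes other than Ndufaf, *Ndufa4* and *Ndufa4l2* among them, were therefore counted with complex I, and whether each protein belongs to that complex was not checked. The rule reads gene symbols and probe annotation only.

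All cells came from retinas of adult C57BL/6 mice (C57BL/6J in the methods), for which the labels name no transgene, and no agent was given other than the light stimuli of the recording. Each RGC was classified by its spikes in response to light, drawn into a pipette, and its PCR-amplified cDNA was hybridized to its own array. The comparison was between 9 alpha cells, which have large somata and thick axons (2 ON alpha, 4 OFF S alpha and 3 OFF T alpha, sustained and transient), and 8 direction-selective (DS) cells, which prefer 1 direction of motion (4 ON DS and 4 ON-OFF DS). The other cells were 2 orientation-selective (OS) cells and 10 cells of further subtypes. Cells are named by subtype and by their number in the labels. The sources do not tie a cell to an animal, so a class counts as 1 sample and no test or standard error between classes was made; the spread given is that between cells.

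In oxidative phosphorylation, complex I and complex II pass electrons from NADH and succinate to ubiquinone, complex III passes them to cytochrome c, and complex IV passes them to oxygen. Complexes I, III and IV pump protons across the inner mitochondrial membrane, and ATP synthase uses the return of the protons to make ATP. Spiking neurons such as RGCs spend much of this ATP on pumping ions, and their unmyelinated axons in the retina are rich in mitochondria. PGC-1alpha, the product of *Ppargc1a*, is a coactivator that raises transcription of nuclear genes for mitochondrial proteins with partners such as NRF1, ERR alpha and YY1.

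Signals are linear intensities scaled by the authors so that the 2% trimmed mean of each array was 1500. A gene was called detected at 3000, and log2 signals had a floor of 375 (8.55 on the log2 scale). The number of genes detected per cell, which stands here for the depth of a library, ran from 1182 to 4201 with a median of 2908. It had a median of 3015 in alpha cells and 2968.5 in DS cells. Rods, the neighbouring photoreceptors, hold dense mitochondria, and their RNA was present in many of these libraries. At least 5 of 10 rod genes were detected in 17 cells, called rod-rich, among them 5 of 9 alpha and 3 of 8 DS cells; the nearest cells on either side of this limit were OFF T alpha 19 with 5 rod genes and OFF S alpha 15 with 4. Between 0 and 9 of the 10 rod genes were detected in alpha cells (summed signal 895 to 3062630) and between 0 and 8 in DS cells (367 to 1146980). Of 8 amacrine cell markers, 1 to 4 were detected in alpha cells (summed signal 87421 to 343572) and 0 to 3 in DS cells (371 to 160017), without *Tfap2a* and *Tfap2b* in either class, and of 8 Müller glia markers 1 to 5 and 1 to 4, without *Aqp4* and *Apoe*. Of the amacrine markers, *Calb2* was detected in 9 alpha and 4 DS cells, with median signals of 139508 and 6224. Its signal ran from 69096 to 333844 in alpha cells, so the summed signal of the list rested largely on this 1 gene there. Whether the *Calb2* signal came from amacrine cells was not tested. *Pax6* was detected in 6 alpha and 7 DS cells, and *Slc6a9* in 3 and 2. *Gad1*, *Gad2* and *Slc32a1* were detected in 1, 2 and 1 alpha cells and in 1, 0 and 0 DS cells. The part of amacrine and glial RNA in the results that follow was not tested. RGC markers were present in both classes, with 7 to 12 of 13 genes detected in alpha cells and 10 to 13 in DS cells. The alpha marker *Nefh*, a neurofilament gene, was detected in 9 alpha and 4 DS cells, and the DS marker *Cartpt*, a neuropeptide gene, in 0 alpha and 6 DS cells.

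OXPHOS genes were among the most widely detected genes in these cells. Of the 92 genes, 79 were detected in at least 3 cells, against 39.1% of all genes, and 59 in at least 75% of the cells, against 4.20% of all genes. In all 29 cells 14 were detected, against 0.55% of all genes. These 14 comprised 8 genes of ATP synthase, and 2 each of complexes I, III and IV. At the other end, 8 were detected in no cell: *Ndufb1*, *Ndufb4* and *Ndufa4l2*, counted by symbol with complex I, the assembly factor *Ndufaf6*, the membrane anchor *Sdhd* of complex II, and the complex IV isoforms *Cox7b2*, *Cox8b* and *Cox8c*. Another 5 were detected in 1 or 2 cells. Since a probe set can fail to bind a transcript that is present, an undetected subunit is a reading of these probe sets only.

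**Figure D1:**
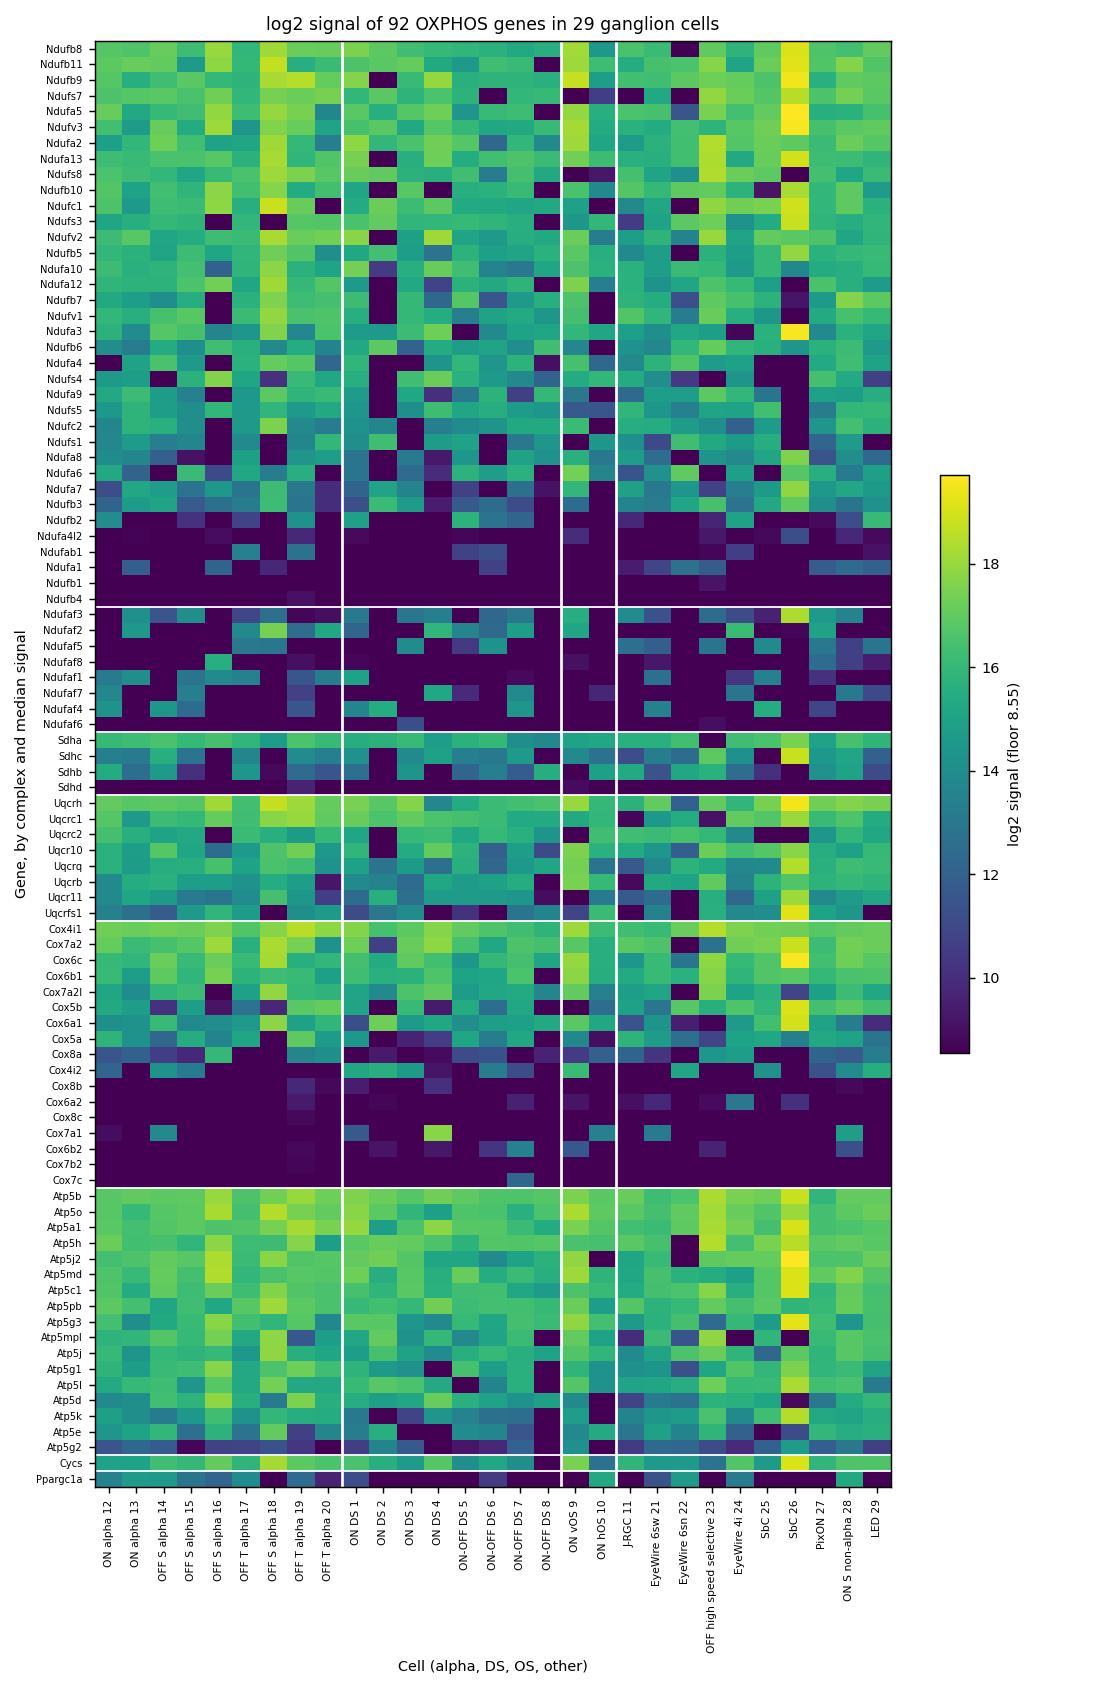
log2 signal of the 92 OXPHOS genes (vertical axis, grouped by complex and ordered within a complex by median signal) in the 29 cells (horizontal axis, alpha, DS, OS and other cells from left to right), with white lines between complexes and between classes. ATP synthase genes are bright in nearly all cells, complex I assembly factors are dark in most, and dark squares among the bright complex I genes are most frequent in ON DS 2, ON hOS 10, SbC 26 and ON-OFF DS 8, with 16, 20, 20 and 21 of 36 subunits detected.

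The number of OXPHOS genes detected per cell ran from 44 in ON-OFF DS 8 to 74 in ON S non-alpha 28, with a median of 64. In alpha cells the lowest number was 57, the median 70 and the highest 73, and in DS cells 44, 64 and 71. The 2 OS cells had 63 (ON vOS 9) and 55 (ON hOS 10), and the 10 other cells between 52 and 74. The classes overlapped, and the 2 lowest cells were both DS cells. The gap was seen in complex I, with a median of 29 of 36 subunits detected in alpha cells and 26.5 in DS cells. The median for ATP synthase was 16 of 17 in alpha cells and 15.5 in DS cells.

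ON-OFF DS 8 stood apart from the other DS cells. Among the 59 widely detected OXPHOS genes (those detected in at least 75% of the cells), 20 (33.9%) were below threshold in it, while 15.0% of all 765 widely detected genes were. The missing genes came from every complex and included *Cycs*, the gene of cytochrome c, which had a signal of 25.7 there and 16720 or more in the other 7 DS cells. ON DS 2 also lacked 18 of the 59 (30.5%), but there 29.3% of all widely detected genes were missing too. The reverse was seen in SbC 26, which lacked 13 of the 59 OXPHOS genes but 47.1% of all widely detected genes.

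The number of OXPHOS genes detected varied with depth (Pearson r = 0.66, Spearman rho = 0.76 with the number of other genes detected over 29 cells, and r = 0.62 when the 2 most extreme cells in depth were dropped). Over the 29 cells the mean log2 signal of the 92 genes varied little with depth (r = 0.12, rho = 0.09). Within the 12 rod-poor cells it did vary with depth (r = 0.60, rho = 0.62, and 0.43 without the 2 most extreme cells). Within the 17 rod-rich cells it varied little with depth (r = -0.08, rho = -0.17, and 0.16 without 2 cells). Over the 29 cells it varied with the mean log2 rod signal (r = 0.64, rho = 0.68, and 0.60 without 2 cells). All values of a cell come from the same library, so these correlations are descriptions. Within the 12 rod-poor cells the correlation with rod signal was 0.15, and within the 17 rod-rich cells it was also 0.15 (rho = 0.24 and 0.30), and without the 2 most extreme cells of each set it was 0.44 and 0.36. Each of these was lower than the pooled value. Of single genes, *Cox6c*, a small subunit of complex IV, had the highest correlation with rod signal (r = 0.77), followed by *Uqcrh* of complex III (0.66) and *Ndufa7* and *Ndufa2* of complex I (0.62 and 0.61). A correlation of 0.5 or more was reached by 15 of the 79 OXPHOS genes detected in at least 3 cells, against 3.35% of all such genes, and by 12 of the 59 widely detected ones, against 9.67%. The median correlation with rod signal was 0.34 over the 59 widely detected OXPHOS genes and -0.08 over all 765 such genes.

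**Figure D2:**
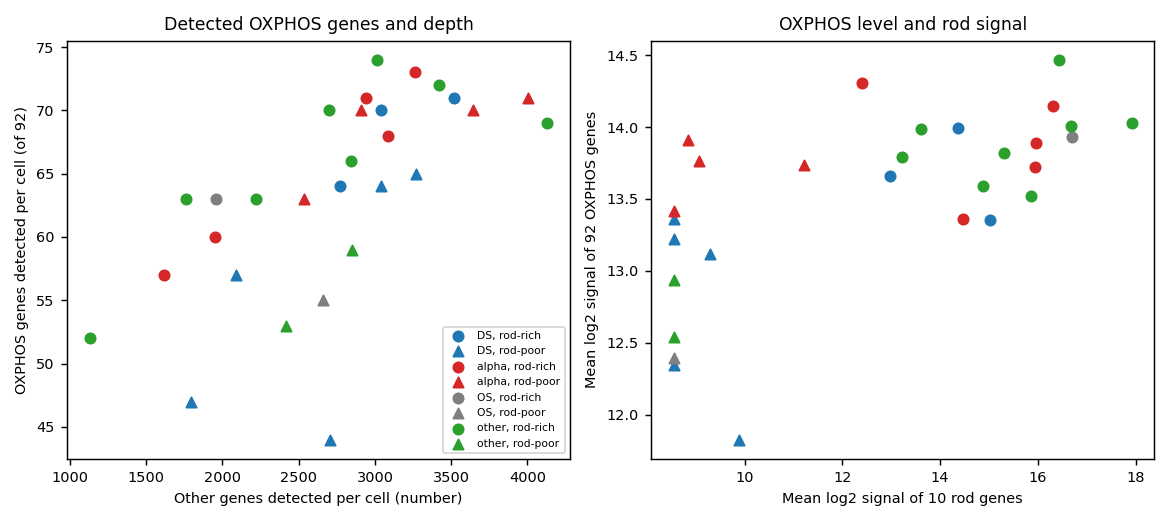
Left, number of OXPHOS genes detected against the number of other genes detected in each of the 29 cells; right, mean log2 signal of the 92 OXPHOS genes against the mean log2 signal of 10 rod genes. Colors mark classes and shapes mark rod-rich and rod-poor cells; the 4 rod-poor alpha cells (red triangles) lie at 13.42 to 13.91 in the right panel and the 5 rod-poor DS cells (blue triangles) at 11.83 to 13.36.

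OXPHOS genes had higher signals in alpha cells than in DS cells as a set, by a small margin. Of the 92 genes, 17 had a median log2 signal at least 1 higher (2-fold) in alpha cells, where 7.43% of all genes did, and 4 were at least 2-fold lower, where 5.99% of all genes were. The median difference over the 92 genes was 0.29 on the log2 scale, and that over all genes was 0. Of the 7113 genes detected in at least 3 cells, 18.9% were at least 2-fold higher, near the 21.5% of the 79 OXPHOS genes among them. At least 2-fold lower were 15.2% of the 7113 genes and 5.06% of the 79. The shares of all genes given beside counts further below also include genes detected in fewer than 3 cells. After each cell was centred on its detected genes, which moved the median of all genes to 0.14, 23 genes were higher (7.87% of all genes) and 2 lower (5.27%). Since abundant genes are measured in more cells, the comparison was also made among the 765 widely detected genes. There, 48 of 59 OXPHOS genes (81.4%) were above 0, against 54.8% of all, and the median difference was 0.51 against 0.06. Of these 59 genes, 12 were at least 2-fold higher in alpha cells (9.28% of the 765) and 1 was at least 2-fold lower (7.97%).

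For single genes the difference was mostly smaller than the spread between cells. In no OXPHOS gene were all alpha cells above, or below, all DS cells, a pattern found in 2 of all 18194 genes (0.011%). Of the 17 genes, 7 differed by more than the pooled SD of log2 signals over cells, where 3.66% of all genes did so in this direction: *Ppargc1a*, *Ndufaf1*, *Cox5a*, *Atp5k*, *Atp5j2*, *Ndufb8* and *Cox8a*, the last of which reversed after quantile normalization. Of the 4 lower genes, *Cox4i2* did (2.15% of all genes). A difference was also seen in how steadily genes were detected. All 9 alpha cells had 43 of the OXPHOS genes, and all 8 DS cells had 25. There were 20 genes detected in every alpha cell but not in every DS cell, and 2 with the reverse pattern, against 2.28% and 2.50% of the 7113 genes detected in at least 3 cells. Of these 7113 genes, 5.17% (368) were in every alpha cell, and 162 of the 368 were not in every DS cell. In every DS cell were 5.40% (384), and 178 of the 384 were not in every alpha cell. The 20 of 43 OXPHOS genes lay near the first of these shares, and the 2 of 25 lay below the second. Without ON-OFF DS 8, the 7 remaining DS cells all had 33 OXPHOS genes (6.06% of the 7113), and 15 were then in every alpha cell but not in every DS cell (1.98%).

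Rod RNA was taken into account in 3 ways. First, the 4 rod-poor alpha cells were compared with the 5 rod-poor DS cells. The median number of genes detected was 3348.5 in these alpha cells and 2748 in these DS cells. The summed rod signal still had a median of 5013 (895 to 227617) in alpha and 1134 (367 to 89307) in DS cells. Between the rod-poor cells, 28 of 92 genes were at least 2-fold higher in alpha cells (14.6% of all genes). At least 2-fold lower were 3 genes (4.89%), and the median was 0.52. Of the 7113 genes detected in at least 3 cells, 36.0% were at least 2-fold higher, and of the 79 OXPHOS genes among them 35.4%. The share of higher OXPHOS genes was thus not above that of detected genes. At least 2-fold lower were 12.3% of the 7113 and 3.80% of the 79. For the 59 widely detected genes the median was 0.59, against 0.02 for all 765, 44 (74.6%) lay above 0, against 51.2%, and 16 were at least 2-fold higher (14% of the 765) and 2 lower (11.5%). Second, among the 5 alpha and 3 DS cells that were rod-rich, where the summed rod signal still ran from 566843 to 3062630 in alpha and from 482160 to 1146980 in DS cells, 25 genes were higher (5.91%) and 9 lower (11.9%), and the widely detected genes had a median of 0.62, against 0.05 for all, with 20 higher (15.7%) and 4 lower (17.8%). Last, in a linear fit with the mean rod signal and the number of other genes detected as covariates, the class coefficient was at least 1 for 21 genes (7.38%) and at most -1 for 4 (7.23%), and 51 of the 59 widely detected genes were above 0 (86.4%, against 55.7%), 16 of them by at least 1 (13.1%), with none at -1 or lower (10.3%). Among genes detected in at least 3 cells, 31.6% of OXPHOS genes and 14.9% of all were higher among rod-rich cells. In the fit these shares were 26.6% and 17.7%. Of the 17 genes at least 2-fold higher over all cells, 13 were also at least 2-fold higher among rod-poor cells, and 7 among both rod-poor and rod-rich cells: *Ppargc1a*, *Ndufaf1*, *Atp5k*, *Ndufa7*, *Ndufa9*, *Ndufv2* and *Cox8a*, with the same reversal for *Cox8a* after quantile normalization.

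The share of the summed signal of a cell that lay in OXPHOS genes pointed the same way. It ran from 4.15% to 8.37% with a median of 5.21% in alpha cells, and from 2.58% to 5.31% with a median of 3.89% in DS cells. In rod-poor cells the median was 4.47% (4.33% to 5.21%) in alpha cells and 3.57% (2.58% to 4.56%) in DS cells. The ranges overlapped in both comparisons. The share itself varied with rod signal over the 29 cells (r = 0.71, rho = 0.71, and 0.66 without 2 cells).

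**Figure D3:**
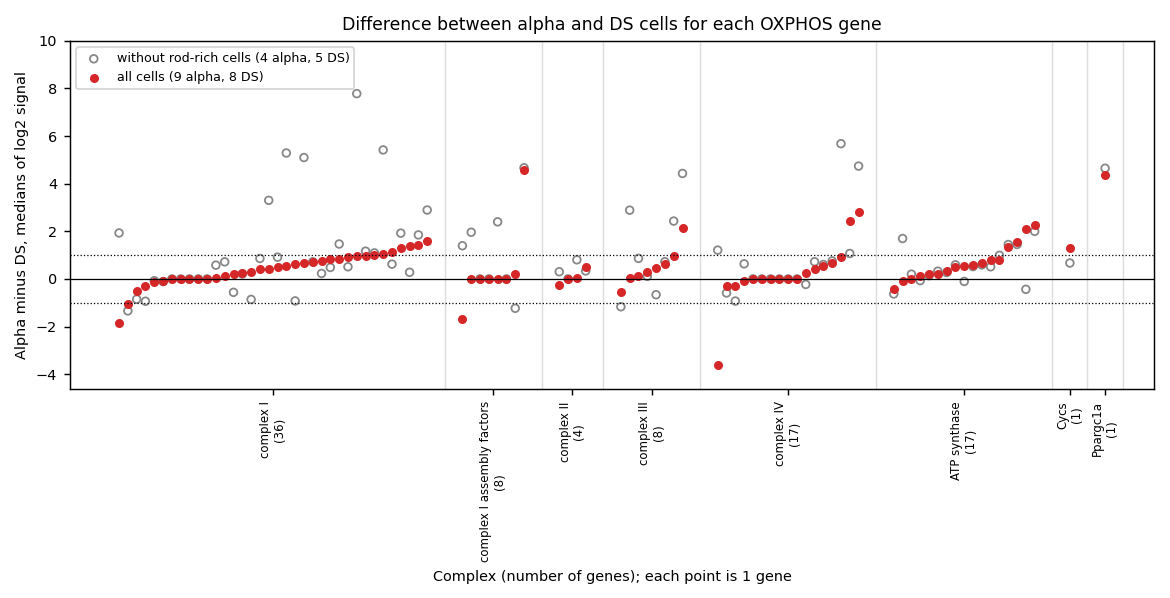
Difference of median log2 signals, alpha minus DS cells, for each of the 92 OXPHOS genes, grouped by complex on the horizontal axis and sorted by value; filled points are all cells (9 alpha, 8 DS), open circles are rod-poor cells (4 alpha, 5 DS), and dotted lines mark a 2-fold difference. Filled points lie above 0 for 59 genes and below 0 for 16, and the open circles scatter more widely.

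*Ppargc1a*, the coactivator gene, was detected in 7 of 9 alpha cells and 0 of 8 DS cells. Its signal was 11524 and 26227 in the ON alpha cells, 23720, 7655, 4620 and 207 in the OFF S alpha cells, and 16062, 5578 and 792 in the OFF T alpha cells. In DS cells it ran from 1.95 to 2430 with a median of 88.6, so the class medians differed by 4.35 on the log2 scale with the DS median at the floor. The difference was 4.65 among rod-poor and 3.89 among rod-rich cells, and rod signal did not vary with it (r = -0.08). Outside these classes it was detected in ON S non-alpha 28 (41898), ON hOS 10 (39871), EyeWire 6sn 22 (27289) and EyeWire 4i 24 (8912). It was therefore not limited to alpha cells. A further probe set of the gene was detected in 12 cells, 7 of them alpha and 1 of them DS, with a difference of 4.74. The remaining 3 were detected in 0, 1 and 1 cells, with a difference of 0.

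The signal of *Ppargc1a* did not follow that of the other OXPHOS genes over the 29 cells. Its correlation with the 78 others detected in at least 3 cells had a median of -0.01 and ran from -0.37 (*Atp5j2*) to 0.39 (*Sdhb*), with none at 0.5 or more. The genes most like it were *Sdhb* (0.39) and *Sdha* (0.35), both subunits of succinate dehydrogenase. In sparse single-cell signals correlations of this size are no finding. The other regulators were at low signal. *Ppargc1b*, *Nrf1*, *Esrrg*, *Gabpa* and *Ppara* were detected in no alpha or DS cell. *Esrra*, the gene of ERR alpha, was detected in 5 alpha and 2 DS cells and differed by 1.52. Over all cells it was the only 1 of 11 regulators at 2-fold or more in either direction (7.43% of all genes higher, 5.99% lower). Among rod-poor cells 3 were higher (14.6% of all genes) and 0 lower (4.89%). These were *Tfb1m* (2.44), *Esrra* (2.15) and *Tfam* (1.03). *Tfb1m* was detected in 2 alpha and 0 DS cells and *Tfam* in 1 and 1, so most of their values lay below the detection threshold.

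*Ndufaf1*, an assembly factor that helps to build the membrane arm of complex I, was detected in 7 of 9 alpha cells and 1 of 8 DS cells. Its signal had a lowest value of 26.3, a median of 9031 and a highest value of 17163 in alpha cells, and 22.3, 106 and 33668 in DS cells. The DS cell that had it, ON DS 1, had the highest value of all. The difference was 4.59, with 4.67 among rod-poor and 2.73 among rod-rich cells. It was detected in 2 of the 10 other cells and in neither OS cell. Both *Ppargc1a* and *Ndufaf1* were detected in 6 cells, which were all alpha cells, and 1 alpha cell, OFF S alpha 18, had neither. The gene has a single probe set on the array, and the other 7 assembly factors ranged from -1.69 (*Ndufaf3*, which was 1.39 in rod-poor cells) to 0.22 (*Ndufaf2*) at the probe sets read, while a further probe set of *Ndufaf4* gave 2.14.

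**Figure D4:**
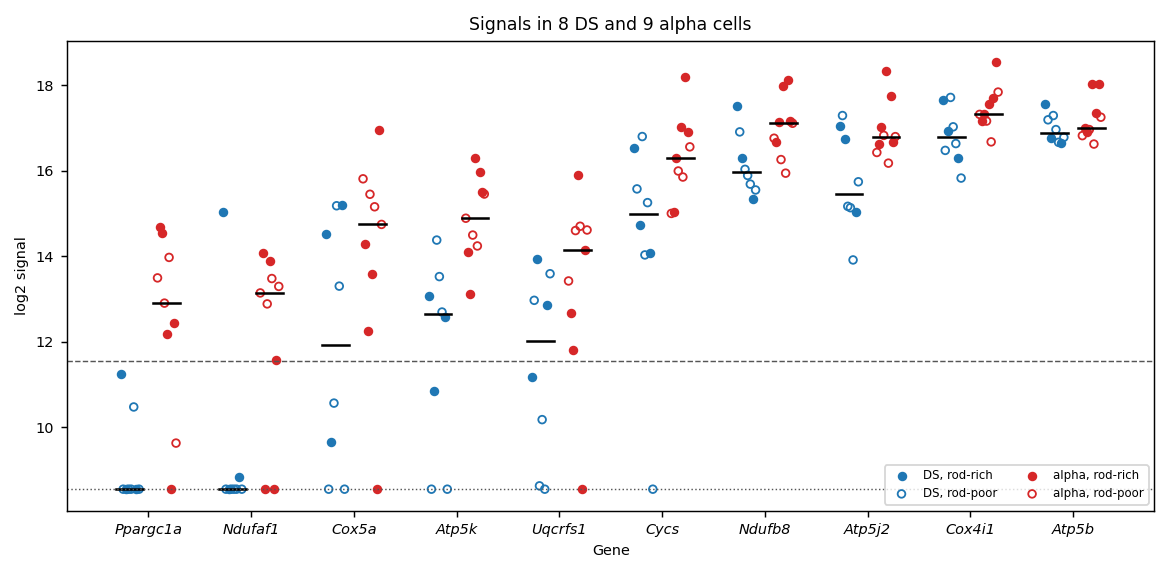
log2 signal of 10 OXPHOS genes in the 8 DS (blue) and 9 alpha (red) cells, with filled points for rod-rich cells, bars at the class medians, a dashed line at the detection threshold and a dotted line at the floor. *Ppargc1a* and *Ndufaf1* lie at the floor in most DS cells, *Cox5a*, *Atp5k* and *Uqcrfs1* are missing from part of them, and *Cox4i1* and *Atp5b* are in every cell, with overlapping classes for all 10 genes.

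In complex I, 7 of 36 subunits were at least 2-fold higher in alpha cells (7.43% of all genes) and 2 were lower (5.99%). The median was 0.47. *Ndufb8*, an accessory subunit, ran from 62939 to 284678 with a median of 141348 in alpha cells, and from 41541 to 187088 with a median of 63804 in DS cells, a difference of 1.15 with a pooled SD of 0.72. It was 0.62 among rod-poor and 0.85 among rod-rich cells. By subtype the median signal of *Ndufb8* was 101801 in ON DS and 50312 in ON-OFF DS cells. In ON alpha, OFF S alpha and OFF T alpha cells it was 107289, 200865 and 141348. *Ndufa9*, which lies where the arms of the complex join, differed by 1.41 (1.85 and 1.17 in rod-poor and rod-rich cells) and *Ndufa7* by 1.58 (2.89 and 2.13), both within their pooled SDs of 2.69 and 2.22. The core flavoprotein subunits *Ndufv1* and *Ndufv2*, which take electrons from NADH, differed by 1.29 and 1.02. *Ndufs1*, the largest core subunit, went the other way at -0.53, but was 0.03 after centring, and *Ndufa2* was at -0.30. The lower genes were *Ndufb2* (-1.83), which was 1.93 in rod-poor cells, and *Ndufb6* (-1.05), which was 1.39 in rod-rich cells, so neither kept its direction.

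The genes of complex II differed by less than 2-fold over all cells. *Sdha*, the flavoprotein, ran from 26522 to 97019 with a median of 69903 in alpha cells, and from 13791 to 70012 with a median of 49844 in DS cells, a difference of 0.49 that was 1.34 when each cell was centred on its detected genes. *Sdhb*, the iron-sulfur subunit, differed by 0.05, or by -0.30 after quantile normalization, and *Sdhc*, a membrane anchor, by -0.26. In complex III the median of 8 genes was 0.38. *Uqcrfs1*, the Rieske iron-sulfur protein, was detected in 8 of 9 alpha and 4 of 8 DS cells, with medians of 17984 and 4873 and a difference of 2.12. That difference was 4.43 among rod-poor cells and -0.18 among rod-rich cells. *Uqcrh*, the hinge protein, was in all 29 cells and differed by 0.62, and *Uqcr11* by -0.56, which was 1.93 in rod-rich cells and 0.50 after centring. *Cyc1*, the cytochrome c1 gene of complex III, whose symbol falls outside the family names, differed by 1.67. *Cycs* had a lowest value of 32764, a median of 80066 and a highest value of 301112 in alpha cells, and 25.7, 33128 and 113967 in DS cells. Its difference was 1.30, but the other 2 probe sets of *Cycs* with signal gave 0.76 and 0.74.

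In complex IV, 2 of 17 genes were at least 2-fold higher in alpha cells (7.43% of all genes) and 1 was lower (5.99%). The median was 0. *Cox5a*, a subunit that surrounds the catalytic core, was detected in 8 alpha and 4 DS cells. Its signal had a lowest value of 120, a median of 27419 and a highest value of 126396 in alpha cells, and 1.66, 5799 and 37283 in DS cells. The difference was 2.81, 4.74 among rod-poor cells and -0.95 among rod-rich cells, so it held in part of the cells only. *Cox8a* was detected in 4 alpha and 0 DS cells and differed by 2.42, or by -0.14 after quantile normalization. *Cox6a1* differed by -0.29, or by 0.43 after centring.

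Of the tissue isoforms of complex IV, the forms common to most tissues were widely detected with the exception of *Cox8a*, detected in 11 cells, and the restricted forms were detected in 12 cells or fewer. *Cox4i1*, the common form of subunit 4, was detected in all 29 cells, with signals of 104531 to 381018 (median 164223) in alpha cells and 58125 to 214823 (median 112977) in DS cells. Its difference was 0.55, near the pooled SD of 0.59, and was 0.60 and 0.63 in rod-poor and rod-rich cells. *Cox4i2*, the form known from lung and low oxygen, was detected in 12 cells, 3 of them alpha and 4 DS, and differed by -3.61, but by 1.21 in rod-poor cells. *Cox6b1* and *Cox7a2* were detected in 28 and 27 cells and *Cox7a2l*, which takes part in supercomplexes, in 26. The muscle form *Cox6a2* was detected in 1 cell, EyeWire 4i 24, with a signal of 8160. The muscle form *Cox7a1* was detected in 6 cells, with a highest value of 220128 in a DS cell. The testis form *Cox6b2* was detected in ON-OFF DS 7 and ON vOS 9.

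ATP synthase had the most steady genes. All 17 were detected in at least 3 cells. In alpha cells 4 were at least 2-fold higher (7.43% of all genes) and none was 2-fold lower (5.99%). The median was 0.53. *Atp5k*, the e subunit, which helps synthase dimers form, was detected in 9 of 9 alpha cells and 5 of 8 DS cells. Its signal ran from 8921 to 79994 with a median of 30315 in alpha cells, and from 2.83 to 21274 with a median of 6387 in DS cells. The difference of 2.25 exceeded the pooled SD of 1.69, was 2.00 among rod-poor and 2.92 among rod-rich cells, and was 2.28 and 2.47 at the other probe sets of the gene. *Atp5j2*, the f subunit, differed by 1.34 (pooled SD 0.94), with medians of 113815 and 45754. Its median was 121647 in ON DS and 34645 in ON-OFF DS cells. In ON alpha, OFF S alpha and OFF T alpha cells it was 94267, 176108 and 105062, so ON DS lay above ON alpha. *Atp5g1*, which encodes the c ring subunit, differed by 1.56, whereas *Atp5g3*, another gene for the same mature protein, differed by 0.00 and *Atp5g2*, the remaining one, by 0.65. *Atp5e*, the epsilon subunit, differed by 2.09 over all cells but by -0.44 in rod-poor cells. The catalytic subunit *Atp5b* differed by 0.12 and *Atp5h*, of the peripheral stalk, by -0.41.

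The subtypes within a class were also set side by side. Of the 92 genes, 17 were at least 2-fold higher in ON-OFF DS than in ON DS cells (13.7% of all genes) and 22 lower (6.22%). Between OFF T alpha and OFF S alpha cells 19 were higher (14.2%) and 16 lower (6.39%). Between ON alpha and OFF S alpha cells 17 were higher (20.7%) and 19 lower (5.36%). Over the 59 widely detected OXPHOS genes the medians of these 3 comparisons were -0.51, -0.23 and -0.73, and over all 765 widely detected genes -0.30, 0.10 and -0.20. With 2 to 4 cells a subtype, these counts are not a ranking of subtypes.

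OXPHOS genes varied together only weakly from cell to cell. Over the 29 cells the median pairwise correlation of log2 signals among the 59 widely detected OXPHOS genes was 0.17, against 0.03 among all 765 widely detected genes and -0.01 between an OXPHOS gene and another gene. Pairs within a complex (0.17) and between complexes (0.17) had the same median.

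Other genes of energy metabolism were read from lists. Beside the counts below, 7.43% of all genes were at least 2-fold higher in alpha cells and 5.99% lower. In rod-poor cells these shares were 14.6% and 4.89%. Among genes detected in at least 3 cells they were 18.9% and 15.2%, and in rod-poor cells 36.0% and 12.3%. Of 15 tricarboxylic acid cycle genes with a value, 6 were at least 2-fold higher in alpha cells and 1 was lower, with a median of 0.74. In rod-poor cells 5 were higher and 0 lower, with a median of 0.34. *Idh3g* (2.00), a subunit of isocitrate dehydrogenase, and *Pdhb* (1.15), of pyruvate dehydrogenase, were higher, and *Idh3a* (-1.57), the catalytic partner of *Idh3g*, was lower. *Dlat* (3.38) and *Dlst* (3.03), acyltransferases of the pyruvate and oxoglutarate dehydrogenase complexes, were also higher. In rod-poor cells the differences were 2.65 (*Idh3g*), 0.34 (*Pdhb*), -0.20 (*Idh3a*), 4.29 (*Dlat*) and 2.12 (*Dlst*), so *Pdhb* and *Idh3a* fell below 2-fold. None of 15 glycolysis genes differed 2-fold in either direction, and their median was 0.22. Of 10 carriers and channels, 3 were higher and none lower, with *Slc25a5*, an ATP and ADP carrier, at 1.15. Of 15 complex IV assembly genes, 1 was higher and 3 were lower, but 4 were higher and 2 lower in rod-poor cells. Of 12 genes of mitochondrial protection and dynamics, 2 were higher and 5 lower, with a median of -0.50 that was 0.41 in rod-poor cells. *Mfn1*, *Mfn2* and *Opa1*, which fuse mitochondria, differed by -2.87, -1.33 and -2.33, and by -4.39, -0.63 and 2.69 in rod-poor cells, so *Opa1* did not keep its direction. *Fis1*, which takes part in fission, differed by -1.28, or by -1.16 in rod-poor cells.

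Since *Ppargc1a* acts through factors with known motifs, promoter sequences were searched for them. RefSeq promoters of assembly GRCm38.p6, 250 bases before to 50 after a gene's start, were matched for 76 of the 92 genes (81 promoters), and both strands were searched for exact letters. The NRF1 motif, a palindrome that both strands read alike, was in 7.41% of OXPHOS promoters and 0.971% of all 32851 promoters, the YY1 motif AAGATGGC in 12.3% and 2.75%, the ERR motif TCAAGGTCA in 2.47% and 0.423%, and the ETS motif CCGGAAGT in 6.17% and 3.89%. In counts these were 6 (NRF1), 10 (YY1), 2 (ERR) and 5 (ETS) of the 81 OXPHOS promoters. The 2 with the ERR motif were those of *Atp5g3* and *Sdhd*, the latter detected in no cell. No promoter held the NRF1 motif with one of the others. The NRF1 matches are shown because *Atp5k*, higher in alpha cells under each treatment of rod RNA above, is among them. The capitals spell the NRF1 motif in windows of 30 bases written along the gene's strand.
Atp5k (chr5:108434430-108434459, minus strand): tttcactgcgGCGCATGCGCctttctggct
Atp5g2 (chr15:102671070-102671099, minus strand): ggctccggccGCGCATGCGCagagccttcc
Cox6a1 (chr5:115349101-115349130, minus strand): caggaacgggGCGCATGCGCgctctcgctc
Ndufaf4 (chr4:24897960-24897989, plus strand): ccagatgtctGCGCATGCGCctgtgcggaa
Ndufaf5 (chr2:140170652-140170681, plus strand): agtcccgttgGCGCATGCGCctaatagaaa
Uqcrc1 (chr9:108936668-108936697, plus strand): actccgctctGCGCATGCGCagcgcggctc

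The other genes of this set differed less between the classes than *Atp5k* did. The differences were 0.65 for *Atp5g2*, -0.29 for *Cox6a1*, 0.29 for *Uqcrc1*, a core protein of complex III, and 0.00 for the assembly factors *Ndufaf4* and *Ndufaf5*. Both assembly factors had class medians at the floor, and another probe set of *Ndufaf4*, detected in 4 alpha and 1 DS cells, gave 2.14.

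Of the 10 promoters with the YY1 motif, most held it just after the start of the gene. In 8 of the 81 promoters (9.88%, against 0.865% of all promoters) the motif lay in the forward direction within the last 50 bases of the window. Of these 8, 7 belong to complex I or its assembly, and 5 of them are shown with the 1 from ATP synthase, in the same notation. Of the remaining matches, that in *Atp5j* lay 88 bases before the start, and that in *Atp5pb* on the reverse strand, 3 bases before the start. The letters of the motif include ATG, the start codon, and whether a match overlaps the start of the coding sequence was not tested.
Ndufb8 (chr19:44555393-44555422, minus strand): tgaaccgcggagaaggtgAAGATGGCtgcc
Ndufa9 (chr6:126849097-126849126, minus strand): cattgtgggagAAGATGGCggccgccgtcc
Ndufs7 (chr10:80249462-80249491, plus strand): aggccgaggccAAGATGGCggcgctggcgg
Ndufc1 (chr3:51408915-51408944, minus strand): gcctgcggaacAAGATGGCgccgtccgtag
Ndufa3 (chr7:3617384-3617413, plus strand): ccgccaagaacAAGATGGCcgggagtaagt
Atp5j2 (chr5:145191500-145191529, minus strand): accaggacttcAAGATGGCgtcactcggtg

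The differences between alpha and DS cells were 1.41 for *Ndufa9*, 1.34 for *Atp5j2*, 1.15 for *Ndufb8*, 0.93 for *Ndufs7* and 0.84 for *Ndufc1* and *Ndufa3*. In the remaining 2 genes with this placement they were 0.04 (*Ndufs4*) and 0.00 (*Ndufaf8*, detected in 2 cells). *Yy1* itself was detected in 2 alpha and 1 DS cells. A match of letters is a description of the promoter and not a bound site.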

How the data were processed

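The authors computed the deposited intensities with MAS5 (version: not given in the sources used here). They are linear signals of 45101 probe sets on 29 arrays, 1 for each cell. Detection calls were not used here. Probe sets were named from GEO's platform annotation, with symbols updated through a RefSeq gene table: 34958 had 1 gene (99.4% matched by ID), and 932 with several genes and 9211 without one were left out, among them 10 that also list an OXPHOS gene. Of several probe sets of a gene, that of highest mean log2 signal was taken, and 21 of the 92 genes were read at probe sets that can bind other transcripts. No test between classes was made.

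The genes, lists and rules were chosen with earlier results of these data known. The text names the 10 genes with the largest positive and negative differences among those detected in at least 3 alpha or DS cells, complex IV isoforms, *Ppargc1a*, *Cycs*, complex II genes and the gene of highest median signal in each complex; further genes were picked with their values in view. The procedure was tried on simulated data, with shifts far larger than the median differences of the set and no rod RNA or depth difference. It therefore cannot show how well differences as small as those of the set are found. Alternatives were other thresholds, floors, probe set rules, scalings, means, rod and depth limits, a linear fit, 4-fold, and leaving out each cell. Calculations used Python 3.11.15, numpy 2.4.6, pandas 2.3.3, scipy 1.17.1 and matplotlib 3.10.9.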

Additional observations from a re-analysis of the deposited data

Results flagged for a closer look

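In 45 groups of 4 to 10 cells the highest and lowest cells were set against the rest. A cell stood apart in 2 of them, about as many as chance gives (about 1 in 20), so both are descriptions only. The share of summed signal in OXPHOS genes was 8.37% in OFF S alpha 18, far above the other alpha cells; this cell had 8 of 10 rod genes, the highest summed rod signal of the alpha cells (3062630) and 2012 genes detected, and the part of rod RNA in its share was not tested. The mean log2 signal of the ATP synthase genes was 13.24 in ON-OFF DS 8, far below the other ON-OFF DS cells; 2 of 10 rod genes and 2748 genes were detected in it.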

How the results depend on the processing

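The higher signal of OXPHOS genes in alpha cells kept its direction under all alternatives, with a median difference of 0.18 to 0.39 when each cell was left out. The number of genes at least 2-fold higher (17) was 28 without rod-rich cells, 30 with differences of means, 7 at 4-fold, and 15 to 23 without 1 cell. The number at least 2-fold lower (4) was 2 with the mean of all probe sets, with means and with centred cells, 9 in rod-rich cells only, 8 with no floor, 1 at 4-fold, 1 among genes detected in at least 75% of the cells (an alternative added after seeing the data), and 2 to 5 without 1 cell, with 2 when ON DS 1 was left out. The median share of genes detected was 75% to 76.1% in alpha cells, 69.6% in DS cells and 69.6% to 70.1% in all cells without 1 cell. Among differences of at least 2-fold, the sign changed for *Cox8a* (-0.14, quantile normalization), for *Atp5e* (-0.44), *Cox4i2* (1.21), *Ndufaf3* (1.39) and *Ndufb2* (1.93) without rod-rich cells, and for *Cox5a* (-0.95), *Ndufb6* (1.39) and *Uqcrfs1* (-0.18) in rod-rich cells only. Among the named genes with smaller differences, 10 changed sign under at least 1 alternative, the farthest being *Uqcr11*, from -0.56 to 1.93 in rod-rich cells only. *Sdha* went from 0.49 to 1.34 with centred cells. The cause was not tested. The size of the *Ppargc1a* difference followed the floor and probe set rule, with 6.44 at no floor, 2.35 at a floor of the trimmed mean and 2.01 when its probe sets were averaged. Of all 445 single-gene values under alternatives other than leaving out 1 cell, these included, 425 moved by less than the spread between cells. No paired analysis was possible because the numbers in the labels only name cells. The number of arrays and undetected transcripts limit the precision.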
